A study of Capra hircus with 3 samples.

Results

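Interferon-stimulated antiviral genes were followed through 3 postnatal stages in longissimus dorsi, a back muscle, of the goat (Capra hircus). The entries were those of the deposited expression table whose product text carries any of 9 names: the ubiquitin-like modifier ISG15, the IFIT proteins IFIT1, IFIT2 and IFIT3, the Mx GTPases MX1 and MX2, RSAD2, IFIH1 and IRF7. This gave 8 of the table's 24689 entries, 1 for each name except IRF7, for which no entry carries the name, so that IRF7 was not analysed here. RefSeq gives 6 of the 8 gene numbers these names in the goat assembly ARS1.2, while IFIT1 and MX2 were taken by product text. The groups were a kid library at 2 months, a youth library at 9 months and an adult library at 24 months, and no treatment is named in the labels. The sources used here do not give breed, sex or genotype, nor whether animals were pooled. Each stage had 1 library, so no difference below has a replicate check, no test between stages was possible, and each value describes these libraries and not the stages.

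Interferons are secreted when a cell senses foreign nucleic acid. They bind receptors whose Janus kinases phosphorylate STAT proteins, and these join IRF9 into a complex that switches on genes carrying an interferon-stimulated response element. The products block viral entry, translation, replication and budding, and some of them (IFIH1 and IRF7) are themselves parts of the sensing and signalling chain. Muscle fibres, vessel cells and resident immune cells can all respond, so RNA from whole muscle mixes their contributions, and more cells of a type cannot be told apart from more RNA per cell.

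Values are FPKM, in which fragments are divided by gene length and library size, which allows levels of different genes to be set side by side. Whole reads behind them were worked out from the steps between values and gave totals of 14920689 to 18399385 per library. Ratios carry exact 95% intervals of those reads, which cover counting error only and no variation between animals. Entries called 2-fold apart differed by 1 or more in log2(FPKM + 1), a scale that understates differences of low genes, among 12121 entries whose mean reached 1 FPKM. Shares and medians over all entries refer to these 12121. By this measure 51 entries were higher and 76 lower in youth than kid (62 and 56 after quantile normalization, 60 and 60 with median-ratio scaling), 122 were higher and 130 lower in adult than youth, and 65 were higher and 148 lower in adult than kid (90 and 100, and 92 and 105, under the same settings). All 8 entries passed the mean filter, the lowest being MX2. Skeletal muscle markers dominated all libraries, with muscle creatine kinase (CKM) at 14183 to 19069 FPKM. The 5 milk protein genes looked up were listed at 0, although the protocol label names mammary tissue.

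All 8 entries stood at their highest level in the youth library, and youth was the highest of the 3 libraries for 25.6% of the 12121 entries that passed the mean filter. Summed over the 8, the level was 37.9 FPKM at the kid, 106 at the youth and 34.99 at the adult stage. The youth sum was 2.80 times the kid and 3.03 times the adult sum.

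**Figure D1:**
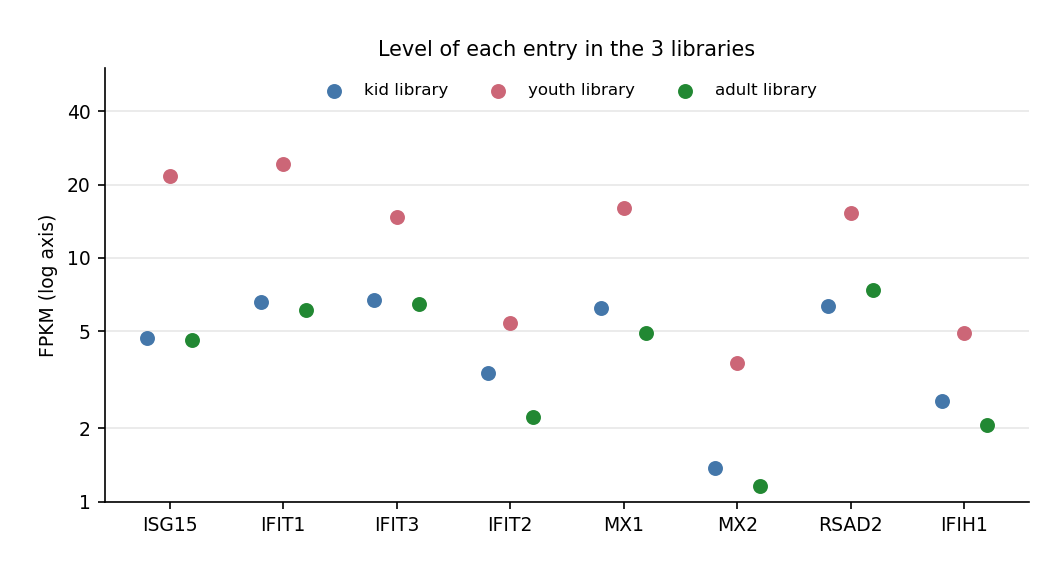
FPKM on a log axis for the 8 entries in the kid, youth and adult libraries, 1 point per library. The youth point is the highest for each of the 8 entries, from 3.71 FPKM for MX2 to 24.3 for IFIT1.

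ISG15 (gene 102169982) encodes a small ubiquitin-like protein that is joined to other proteins during infection and is also released from cells. It stood at 4.69 FPKM in the kid library, 21.6 in the youth library and 4.62 in the adult library, from 48, 209 and 55 reads. The youth level was far above the other libraries, and the kid and adult levels were nearly equal. Youth was 4.62-fold above kid (3.36 to 6.46) and adult 4.69-fold below youth (3.47 to 6.43), the widest ratios among the 8 entries. Among all 12121 entries its difference on the log2(FPKM + 1) scale was the 6th highest in youth against kid, at 1.99, and the 11th lowest in adult against youth, at -2.01. Of the summed FPKM of the 8 entries ISG15 held 12.4% in kid, 20.4% in youth and 13.2% in adult.

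The IFIT genes encode proteins built of tetratricopeptide repeats, of which IFIT1 recognises RNA with foreign 5′ ends and blocks its translation. IFIT1 (gene 102168687) was at 6.57 FPKM in the kid library, 24.3 in the youth library and 6.14 in the adult library, from 175, 609 and 190 reads. Its youth level was the highest among the members, and it was 3.69-fold above kid (3.12 to 4.39) and 3.95-fold above adult (3.35 to 4.68). IFIT3, which binds IFIT1 and steadies it, was at 6.70, 14.8 and 6.45 FPKM in the same order. Youth was 2.20-fold above kid (1.87 to 2.60) and 2.29-fold above adult (1.96 to 2.69), and kid and adult were again close. IFIT2, a partner of the other IFIT proteins that also acts on cell survival, was at 3.37, 5.40 and 2.23 FPKM. For IFIT2 youth was 1.60-fold above kid (1.31 to 1.96) and 2.42-fold above adult (1.94 to 3.02), and adult was 1.51-fold below kid (1.19 to 1.92).

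The IFIT genes were apart to unequal degrees: the interval of IFIT1 in youth over kid did not overlap those of IFIT3 or IFIT2. IFIT1 made up 39.5% of the summed FPKM of the 3 genes in kid, 54.6% in youth and 41.4% in adult. IFIT2 went the other way, with 20.3%, 12.2% and 15.1%. In the reference order the genes IFIT5, IFIT1, IFIT3 and IFIT2 follow each other without another protein-coding gene between them. IFIT5, the family member just outside the rule, was at 12.2, 14.6 and 9.53 FPKM, only 1.20-fold higher in youth than kid (1.07 to 1.34) and 1.53-fold lower in adult than youth (1.36 to 1.72). LIPA, a lysosomal lipase gene on the far side of IFIT2, was at 7.32, 7.47 and 4.32 FPKM. The sources used here do not say how reads matching several close copies were counted, which leaves single values of the IFIT and Mx families uncertain.

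MX1 and MX2 encode dynamin-like GTPases that trap incoming viral particles. MX1 (gene 102188635) was at 6.26 FPKM in the kid library, 16.1 in the youth library and 4.93 in the adult library. Youth stood 2.56-fold above kid (2.21 to 2.99) and 3.26-fold above adult (2.79 to 3.81), and the adult level was the lowest, 1.27-fold below kid (1.06 to 1.53). That last interval does not cover the choice of scaling. On the log2(FPKM + 1) scale the adult minus kid difference of MX1 was -0.29, but -0.17 with median-ratio scaling and -0.16 after quantile normalization. MX2 was at 1.37, 3.71 and 1.16 FPKM from 72, 184 and 71 reads, the lowest level among the members in each library. The exact Poisson interval of its youth level (3.19 to 4.29 FPKM) overlapped that of IFIH1 (4.08 to 5.86). Such an overlap does not decide whether the levels differ, and the ratio between these genes was not tested. MX2 was 2.71-fold higher in youth than kid (2.05 to 3.61) and 3.20-fold lower in adult than youth (2.42 to 4.26). The MX1 share of the pair's summed FPKM was 82.1%, 81.2% and 80.9%, nearly equal in the 3 libraries, unlike the shares within the IFIT family. MX2 lies beside MX1 in the reference order, where it has another gene number than the entry used here, which was taken by its product text. TMPRSS2, a protease gene on the other side of MX1, was at 0.129, 0.205 and 0.277 FPKM.

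RSAD2 (viperin) is a radical S-adenosylmethionine enzyme that makes a chain-terminating nucleotide from CTP. It was at 6.34 FPKM in the kid library, 15.3 in the youth library and 7.40 in the adult library. Youth was 2.41-fold above kid (2.05 to 2.84) and 2.07-fold above adult (1.78 to 2.40). RSAD2 was the member whose adult level lay above kid, at a ratio of 1.17 and an interval spanning 1 (0.976 to 1.40). Its neighbour in the reference order, CMPK2, encodes a mitochondrial nucleotide kinase acting on CMP and UMP. CMPK2 was at 6.49, 11.5 and 8.58 FPKM, 1.77-fold higher in youth than kid (1.44 to 2.18), and adult was 1.34-fold below youth (1.11 to 1.61). On the other side of RSAD2, the ubiquitin ligase gene RNF144A stood at 4.63, 2.92 and 3.24 FPKM, lowest in youth.

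IFIH1 (MDA5) is a cytoplasmic helicase that detects long double-stranded RNA. It was at 2.58 FPKM in the kid library, 4.91 in the youth library and 2.06 in the adult library, from as few as 63 reads, so that its intervals are wide. Youth was 1.90-fold above kid (1.40 to 2.60) and 2.39-fold above adult (1.75 to 3.29).

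**Figure D2:**
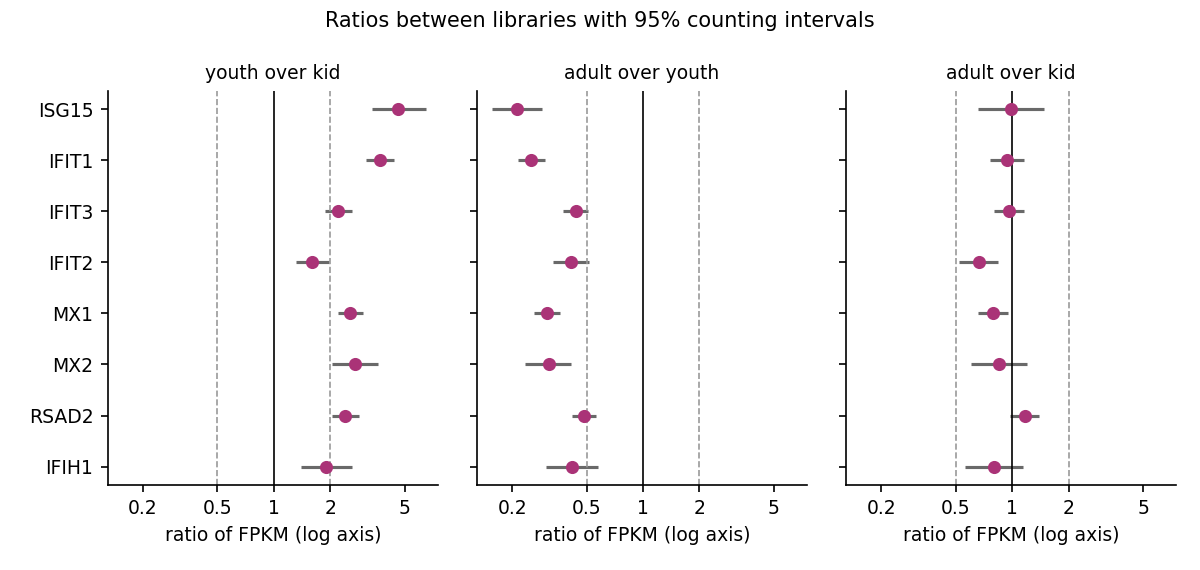
Ratio of FPKM on a log axis for the 8 entries in youth over kid, adult over youth and adult over kid, with exact 95% intervals of the reads as bars, a solid line at 1 and dashed lines at 2-fold. The youth over kid ratios run from 1.60 for IFIT2 to 4.62 for ISG15, and the adult over kid ratios from 0.662 for IFIT2 to 1.17 for RSAD2.

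By value, the order of the levels was not the same in any 2 of the 3 libraries. Kid and adult differed only in the place of RSAD2, within overlapping intervals. In kid, IFIT3, IFIT1, RSAD2 and MX1 lay together at 6.26 to 6.70 FPKM with overlapping exact Poisson intervals, and ISG15, IFIT2, IFIH1 and MX2 followed. The kid interval of ISG15 (3.46 to 6.21) overlapped that of each gene above it. In youth, IFIT1 (interval 22.4 to 26.3 FPKM) and ISG15 (18.8 to 24.8) could not be ordered beyond counting error. MX1, RSAD2 and IFIT3 formed the next group in youth at 14.8 to 16.1 FPKM, again with overlapping intervals, and IFIT2, IFIH1 and MX2 stood lowest. In adult, RSAD2 (6.58 to 8.30), IFIT3 (5.66 to 7.30) and IFIT1 (5.29 to 7.07) overlapped in part, and IFIT2, IFIH1 and MX2 were again the lowest. Between these groups, MX1 (4.31 to 5.61) and ISG15 (3.48 to 6.01) overlapped IFIT1 and each other. By value, ISG15 stood 5th of the 8 in kid and adult and the second in youth, places that are not beyond counting error.

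Youth against kid set the 9-month library beside the 2-month library, as the series was made to find genes that differ between stages. Of the 8 members, 5 were at least 2-fold higher in youth (ISG15, IFIT1, MX1, RSAD2 and IFIT3), and none was 2-fold lower. Over all entries 0.421% were 2-fold or more higher and 0.627% were 2-fold or more lower. IFIT3 lay just above the threshold at 1.03 and MX2 just below it at 0.99. The interval of the ratio lay above 1 for 8 of the 8 members, against 11.6% above and 26.9% below over all entries. The median member difference was 1.09 on the log2(FPKM + 1) scale, beside -0.08 over all entries.

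Adult against youth compared the libraries at 24 and 9 months. All 8 members were lower in adult, and 5 were at least 2-fold lower (ISG15, IFIT1, MX1, MX2 and IFIT3), beside 1.07% of all entries at least 2-fold lower and 1.01% at least 2-fold higher. IFIT2, RSAD2 and IFIH1 had differences of -0.99, -0.96 and -0.95, just short of the threshold. The interval lay below 1 for 8 of 8 members, where 27.0% of all entries had it below 1 and 22.3% above. The median member difference was -1.10 on the log2(FPKM + 1) scale, beside -0.02 over all entries. The youth library enters this comparison and that with kid, so the 2 sets of differences are not independent of each other.

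Adult against kid compared libraries at 24 and 2 months without the youth library. None of the 8 members was 2-fold apart, where 0.536% of all entries were 2-fold or more higher and 1.22% lower. The interval held 1 for 6 members, lay below 1 for IFIT2 and MX1, and above 1 for none, where 34.6% of all entries had it below 1 and 16.7% above. The median member difference was -0.11, beside -0.10 over all entries. Median-ratio scaling moved the median of all entries by 0.12 in this comparison. The members' median took the opposite sign under quantile normalization, at 0.04, and each of the following took it under at least 1 other scaling: ISG15, IFIT1, IFIT3 and MX2.

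**Figure D3:**
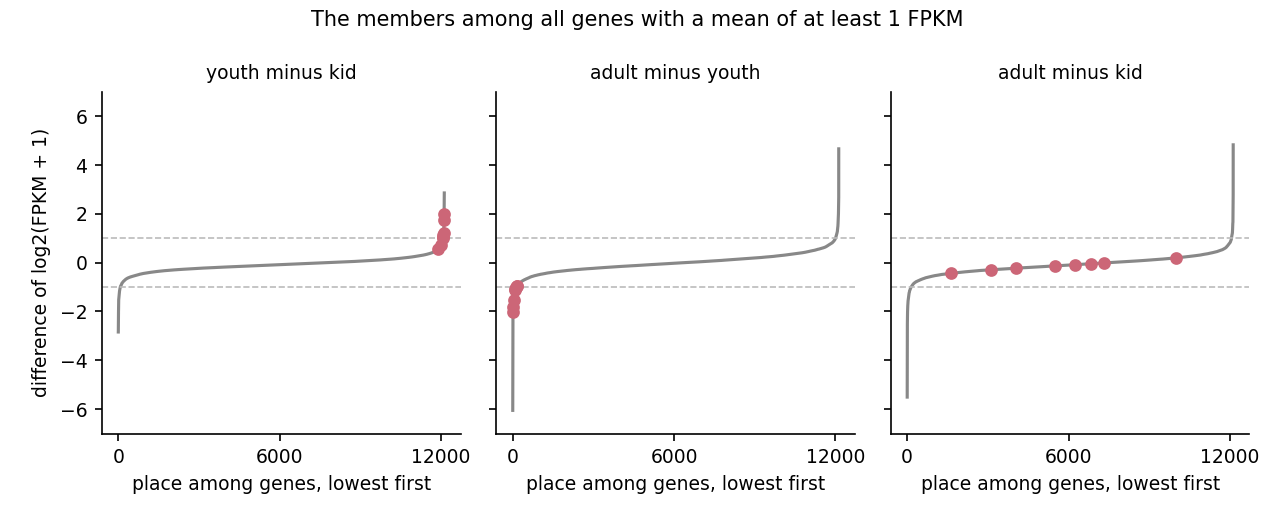
Differences of log2(FPKM + 1) of all 12121 entries with a mean of at least 1 FPKM, ordered from lowest to highest as a grey line, with the 8 members as red points and dashed lines at -1 and 1. The members sit at the upper end in youth minus kid and at the lower end in adult minus youth. In adult minus kid they are spread over much of the line, short of its ends.

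Upstream of these genes, transcripts of interferons were nearly absent. Of 22 entries whose product text names an interferon, 18 were listed at 0 in all 3 libraries. Interferon gamma (IFNG) was at 0.0801 FPKM in kid and listed at 0 in youth and adult. The highest value of any interferon entry was 0.492 FPKM, in adult, for an entry described as interferon beta-2-like, which stood at 0.476 in kid and 0.404 in youth. A gene of 1 kb with 3 reads would have 0.163 to 0.201 FPKM, and interferon entries at 0 may lie below what this depth can show.

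Receptors and their kinases had no gene 2-fold apart on the log2(FPKM + 1) scale in any comparison. Over all entries only 1.05% were in youth against kid, 2.08% in adult against youth and 1.76% in adult against kid. The absence of such a gene therefore does not set this list apart. Of 11 genes of this list that passed the mean filter, 4 were higher in youth than kid, with a median difference of -0.11 beside -0.08 over all entries. JAK1, the kinase bound to both receptor types, was the most abundant at 34.5, 31.9 and 26.7 FPKM in kid, youth and adult. The interferon gamma receptor chains went different ways between kid and youth: IFNGR1 was at 31.1, 20.8 and 18.4 FPKM and IFNGR2 at 23.7, 28.9 and 25.6. JAK2, which serves the interferon gamma receptor, was at 4.68, 3.31 and 2.23 FPKM, by plain ratio 2.10-fold lower in adult than kid (1.74 to 2.53). TYK2, which serves the type I receptor, was at 6.69, 5.36 and 6.49. In adult against youth the list had a median of -0.17, beside -0.02 over all entries, with 9 of 11 genes lower. The interval lay below 1 for 6 and above 1 for 1, where 27.0% and 22.3% of all entries had it.

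Among sensors and their adaptors, 1 of 11 genes was at least 2-fold higher in youth than kid, beside 0.421% of all entries. That was ZBP1, a sensor of left-handed nucleic acid, which passed the mean filter only through its youth level. ZBP1 was at 0.568 FPKM in the kid library, 2.23 in the youth library and 0.929 in the adult library, 3.93-fold higher in youth than kid (2.37 to 6.79) and 2.40-fold lower in adult than youth (1.60 to 3.65). DDX58 (RIG-I), the helicase related to IFIH1 that recognises short RNA with a triphosphate end, was at 3.43, 5.23 and 2.97 FPKM, 1.53-fold higher in youth than kid (1.26 to 1.85). TRIM25, a ubiquitin ligase acting on RIG-I, was at 3.34, 4.50 and 2.82 FPKM. The adaptors did not share this order: MAVS, which relays RIG-I and MDA5 signals at the mitochondrion, was at 22.2, 21.3 and 28.5 FPKM, highest in adult, and MYD88, the adaptor of most Toll-like receptors, was at 4.53, 3.55 and 3.49 FPKM. The list's median was -0.02 in youth against kid, with the opposite sign under other scalings (up to 0.09), and -0.30 in adult against youth with 8 of 11 genes lower. Over all entries the medians were -0.08 and -0.02. In adult against youth the interval lay below 1 for 6 genes and above 1 for 2, where 27.0% and 22.3% of all entries had it.

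Interferon regulatory factors are the transcription factors that act on these promoters. Besides IRF7, 6 of the 8 genes listed had a mean of at least 1 FPKM. None was 2-fold apart on the log2(FPKM + 1) scale in any comparison. Over all entries 1.05% were in youth against kid, 2.08% in adult against youth and 1.76% in adult against kid. IRF9, the DNA-binding part of the complex formed with STAT proteins, was at 17.6, 18.5 and 19.3 FPKM in kid, youth and adult. IRF1, itself induced by interferon gamma, was at 10.5, 13.3 and 6.92 FPKM, 1.26-fold higher in youth than kid (1.09 to 1.47) and 1.92-fold lower in adult than youth (1.64 to 2.26). IRF8, a factor of myeloid cells, was at 2.85, 3.76 and 1.82 FPKM, with an interval for youth over kid that included 1 (0.969 to 1.80). By plain ratio it was 2.06-fold lower in adult than youth (1.47 to 2.91). IRF2, a repressor of the same sites, was at 14.98, 11.95 and 11.6 FPKM, and IRF5 at 2.83, 2.496 and 1.98. The median over the 6 genes was -0.01 in youth against kid, reaching 0.08 under other scalings, and -0.27 in adult against youth.

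The enzymes that join ISG15 to its targets were much less apart than ISG15 itself. Of 6 genes found, none was 2-fold apart on the log2(FPKM + 1) scale in any comparison. Over all entries 1.05% were in youth against kid, 2.08% in adult against youth and 1.76% in adult against kid. The list's median was 0.13 in youth against kid and -0.44 in adult against youth. HERC6, a ligase of this pathway in mouse, was at 2.35, 3.97 and 2.24 FPKM, 1.69-fold higher in youth than kid (1.23 to 2.35). HERC5, the main ISG15 ligase in human, was at 2.19, 2.80 and 1.98 FPKM, at a ratio of 1.28 (1.01 to 1.62). UBA7, the activating enzyme, stood the other way at 3.06, 2.02 and 2.25 FPKM, 1.52-fold lower in youth than kid (1.17 to 1.99). ARIH1, a ubiquitin ligase, was at 20.3, 20.5 and 20.7 FPKM.

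A list of other antiviral effectors, drawn from common knowledge of the pathway, had 36 of its 46 names in the table and 28 with a mean of at least 1 FPKM. None was 2-fold apart on the log2(FPKM + 1) scale in youth against kid, and 20 of 28 were higher. For 12 (against 11.6% of all entries) the interval lay above 1 and for 0 (against 26.9%) below. The share at least 2-fold higher on that scale was 0.421% over all entries. Plain FPKM ratios of youth over kid were 2 or more for some, among them GBP4 at 3.26 (2.09 to 5.24), OAS1 at 2.34 and SAMD9 at 2.00. GBP4, a guanylate-binding GTPase, was closest to the threshold with 0.787 FPKM in the kid library, 2.57 in the youth library and 0.0502 in the adult library, the last from 2 reads. It passed the mean filter only through its youth level. OAS1, which makes the messenger that activates RNase L, was at 2.48, 5.79 and 2.72 FPKM, 2.34-fold higher in youth than kid (1.80 to 3.07). EIF2AK2 (PKR), a kinase that stops translation when it meets double-stranded RNA, was at 6.74, 12.4 and 5.06 FPKM, and SAMD9, a restriction factor of poxviruses, at 2.83, 5.66 and 2.81. IFI6, the most abundant gene of the list, was at 20.05, 20.6 and 14.7 FPKM, with kid and youth not beyond counting error (ratio 1.03, 0.852 to 1.23). The list's median was 0.21 in youth against kid, below the members' 1.09.

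In adult against youth 27 of these 28 effectors were lower, 2 of them at least 2-fold on the log2(FPKM + 1) scale. The interval lay below 1 for 20 and above 1 for 1. Over all entries 1.07% were at least 2-fold lower, and the interval lay below 1 for 27.0% and above 1 for 22.3%. The list's median was -0.52, beside -0.02 over all entries. The 2 genes were GBP4, at a ratio of 51.2-fold lower (13.7 to 430) that rests on 83 against 2 reads, and EIF2AK2, 2.46-fold lower (2.03 to 2.98). GBP4 passed the mean filter only through its youth level, which favours a fall from youth, so nothing is read from its place in the count. In adult against kid 24 of 28 were lower with a median of -0.27, beside -0.10 over all entries, and the interval lay below 1 for 15, where 34.6% of all entries had it, and above 1 for 1, where 16.7% had it. OAS and guanylate-binding genes have close copies, so their single values carry the same uncertainty as those of the IFIT family.

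Genes that respond mainly to interferon gamma were compared to see how far they share the members' levels. None of 14 was 2-fold apart on the log2(FPKM + 1) scale in youth against kid or adult against youth. Over all entries 1.05% and 2.08% were. The median in youth against kid was 0.06, with 7 higher and 7 lower. PSMB8, an immunoproteasome subunit, was at 10.5, 13.1 and 7.59 FPKM, 1.25-fold higher in youth than kid (1.05 to 1.49) and 1.73-fold lower in adult than youth (1.44 to 2.08). GBP5 was lowest in youth, at 2.74, 1.92 and 3.46 FPKM. WARS, a tryptophan tRNA synthetase induced by interferon gamma, was the most abundant at 18.2, 15.6 and 18.5 FPKM. The median in adult against youth was -0.25, beside -0.02 over all entries, with 10 of 14 lower. The interval lay below 1 for 6 and above 1 for 4, where 27.0% and 22.3% of all entries had it.

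Genes that restrain the pathway were lower in youth than kid in 11 of 12 cases, 10 with median-ratio scaling and 9 after quantile normalization. The share of all entries that were lower was not worked out, so these counts have no background to be read against. The interval lay below 1 for 3 of the 12 and above 1 for 0, where 26.9% and 11.6% of all entries had it. The median was -0.13 beside -0.08 over all entries. None was 2-fold apart on the log2(FPKM + 1) scale, where 1.05% of all entries were. SOCS3, a feedback inhibitor of Janus kinases, was at 5.34, 3.36 and 1.87 FPKM. On the log2(FPKM + 1) scale its adult minus kid difference of -1.14 was the list's only one beyond 2-fold in the 3 comparisons. The phosphatase gene PTPN6 was at 3.73, 2.81 and 1.68 FPKM. TRIM24, a co-regulator that dampens interferon signalling in mouse liver, was at 8.97, 6.51 and 8.46 FPKM, and PIAS1, an inhibitor of STAT signalling, at 7.57, 6.54 and 5.89. OTUD5, a deubiquitinase, was the most abundant at 36.1, 34.1 and 34.1 FPKM.

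**Figure D4:**
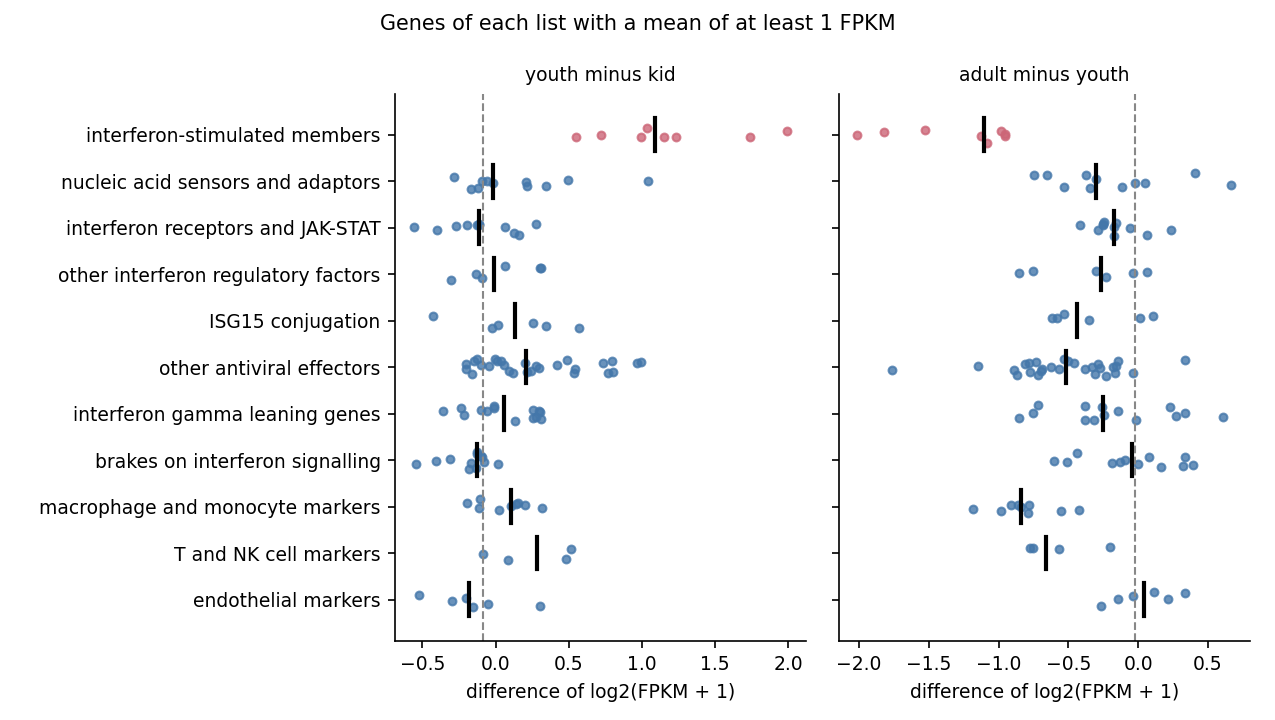
Differences of log2(FPKM + 1) of single genes, 1 point each, in 11 lists for youth minus kid and adult minus youth, with the list median as a black bar and the median of all entries as a dashed line. The members' median lies at 1.09 and -1.10. Those of the other pathway lists lie between -0.13 and 0.21 in youth minus kid and between -0.52 and -0.05 in adult minus youth. In the same order, macrophage and monocyte markers lie at 0.11 and -0.84. T and natural killer cell markers lie at 0.28 and -0.66, and endothelial markers at -0.18 and 0.04.

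Markers of other cell types were read beside these results. The summed FPKM of 11 macrophage and monocyte markers was 80.6 in kid, 87.5 in youth and 43.7 in adult, with C1QB, a complement chain, at 16.7, 19.4 and 9.34 FPKM and C1QA at 12.9, 16.3 and 6.64. All 9 of these markers that passed the mean filter were lower in adult than youth (median -0.84, 8 with an interval below 1), and in youth against kid the median was 0.11 with 1 of 9 beyond counting error, C1QA. No marker of this list was at 0, but ADGRE1 was near it with 2, 2 and 1 reads. The summed FPKM of 9 T and natural killer cell markers was 10.02, 13.1 and 6.75, with CD3E at 2.61, 4.05 and 2.41 FPKM, CD3G at 0.906, 1.72 and 0.614, and GZMA listed at 0 in youth and adult. Of these T and natural killer cell markers 4 passed the mean filter, CD3G only through its youth level. In youth against kid 3 were higher and 1 lower, with the interval above 1 for 2. All 4 were lower in adult than youth, 3 with an interval below 1. Over all entries the interval lay above 1 for 11.6% in youth against kid and below 1 for 27.0% in adult against youth. The part of both cell types in the members' differences was not tested.

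B and plasma cell markers summed to 7.45, 5.9995 and 4.18 FPKM over 8 genes, mostly JCHAIN at 4.86, 3.88 and 2.89, with PAX5 listed at 0 throughout. Of the names listed for plasmacytoid dendritic cells, the main interferon producers of blood, 5 of 7 had an entry. They summed to 24.0, 19.4 and 19.5 FPKM, mostly from TCF4 and SPIB, which other cells also express. Neutrophil markers summed to 13.04, 4.73 and 4.04 FPKM over 6 genes and stood highest in kid, with S100A12 at 5.56, 1.92 and 1.22 FPKM and MPO listed at 0 in youth and adult. Endothelial markers summed to 201, 175 and 173 FPKM over 6 genes, with PECAM1 at 72.7, 65.3 and 54.1. Red blood cell markers summed to 1.77, 1.31 and 2.13 FPKM over 4 genes. None of these 5 sums was highest in youth, where all 8 members were. The mean filter was passed by 1 of the 8 B and plasma cell, 3 of the 5 plasmacytoid and 3 of the 6 neutrophil markers. It was passed by 6 of the 6 endothelial and 1 of the 4 red blood cell markers, so several sums rest on low values. The part of these cell types in the members' differences was not tested.

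The genes whose levels over the 3 libraries were most like the members were looked for among all named genes whose mean reached 1 FPKM. The measure was the Euclidean distance between values of log2(FPKM + 1), centred on each gene's own mean, and the median profile of the members, which was -0.32 in kid, 0.71 in youth and -0.45 in adult. Members themselves lay at 0.0441 (MX2) to 0.751 (ISG15) from that profile. The nearest genes with a symbol in the reference were POSTN, a matrix protein gene, at 0.0926, the hepatocyte growth factor receptor gene MET at 0.0999, TPPP at 0.105 and AKAP12 at 0.139. COL6A6 at 0.162, C1QTNF6 at 0.176, the endothelial nitric oxide synthase gene NOS3 at 0.178 and TBX3 at 0.181 completed the 8. Entries without a symbol there were left out by the rule, and 3 of the oligoadenylate synthetase family lay as near. By distance among all entries, OAS3 at 0.0932 held place 2 and an OAS1-like entry (gene 102190983) at 0.0952 place 3. Another OAS1-like entry (gene 102185558) at 0.127 held place 6. These 3 were looked up after their values were seen. Entries outside this family were left out in the same way. Fibroblast growth factor receptor 3 at 0.164 held place 9, and an entry without a product name (gene 102189662) at 0.173 held place 10. Each of these lay nearer than C1QTNF6. MET was at 7.67, 15.5 and 6.29 FPKM in kid, youth and adult, and TPPP at 1.95, 4.49 and 1.67. POSTN, at 0.559, 2.16 and 0.326 FPKM, passed the mean filter only through its youth level. With only 3 libraries, many genes can share such an order of levels.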

How the data were processed

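RNA sequencing of goat longissimus dorsi was analysed in 3 libraries, 1 per stage. The authors deposited 1 table of FPKM with a column per stage. The submitters' processing notes name FastQC, TopHat2 and DESeq without role or version. Genome build, annotation, strand, counting and the handling of multiply matching reads: not given in the sources used here. Close copies could therefore share reads, and because FPKM depends on the mapped total, abundant muscle genes can shift all others.

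Names came from gene numbers (21743 of 24689 entries matched ARS1.2, used for names and gene order only) and otherwise from product text. No sequence was available to print. The members and lists were chosen with earlier results of these data known, and 1 further name of the rule is not reported here, so no count covers the whole rule. The rule for named genes took all members, the most abundant gene of each list and up to 4 with the largest youth minus kid difference, and the 8 genes nearest to the members' median profile. Neighbouring genes, IFIT5, CMPK2 and ADGRE1 were named after their values were seen.

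Whole reads were recovered for all 17211 entries above 0 in at least 2 libraries, with a tolerance of 5e-05 read and an allowance for rounding. They are the smallest whole numbers that match, so true reads can be a multiple, and intervals are then narrower. Totals were 15829474, 14920689 and 18399385 for kid, youth and adult. Differences used a pseudocount of 1. Ratio intervals were Clopper-Pearson intervals at 95% (Python 3.11.15, scipy 1.17.1). Steps were tested on simulated reads. Other pseudocounts, filters, scalings and thresholds were tried.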

Additional observations from a re-analysis of the deposited data

How the results depend on the processing

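With 1 library per stage no replicate could be left out. No paired analysis was possible because each stage had 1 library. The 5 members at least 2-fold higher in youth than kid numbered 2 with a pseudocount of 5 and 5 to 7 under the 9 other settings. The 5 at least 2-fold lower in adult than youth numbered 3 with a pseudocount of 5 and 8 with a pseudocount of 0.1, with a 1.5-fold threshold or with ratios whose interval left out 1, and 4 to 7 otherwise. In adult against kid the number was 0 under all 10 alternatives. With a pseudocount of 5 the members' median was 0.80 in youth against kid and -0.75 in adult against youth. In adult against youth it was -1.42 with a pseudocount of 0.1 and -1.52 among the 5 members with a mean of at least 5 FPKM. A larger pseudocount shrinks differences of low genes by construction. No called value of a member changed sign.

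Over all entries, the 127, 252 and 213 at least 2-fold apart (youth against kid, adult against youth, adult against kid) were 300, 555 and 451 with a pseudocount of 0.1, 45, 82 and 71 with a pseudocount of 5, and 64, 160 and 122 at a mean of at least 5 FPKM. They were 280, 569 and 478 by ratios with intervals, and 639, 1316 and 1120 at 1.5-fold. Depth limits MX2, IFIH1 and ISG15 most, with 48 to 72 reads in kid.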

Other observations

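The oligoadenylate synthetase family, of which OAS1, OAS2 and OASL were in the list of other antiviral effectors, was looked at as a whole after its values were seen. Of 7 entries of this family 4 had a mean of at least 1 FPKM. On the log2(FPKM + 1) scale 3 of these were at least 2-fold higher in youth than kid and at least 2-fold lower in adult than youth. Over all 12121 entries the shares were 0.421% and 1.07%. Since the family was picked for these values, nothing is read from that count. OAS3 (gene 102176990) had 1.58 FPKM in the kid, 4.48 in the youth and 1.58 in the adult library, 2.83-fold higher in youth than kid (2.07 to 3.91). An entry described as OAS1-like (gene 102190983) was the most abundant of the family at 7.75, 16.9 and 6.46 FPKM, and another (gene 102185558) was at 3.45, 9.18 and 3.23 FPKM. OAS2, at 0.669, 0.887 and 0.374 FPKM, was not beyond counting error in youth against kid. Copies of this family are close, which leaves these single values uncertain.

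The guanylate-binding proteins did not share 1 order of levels. Of 9 entries 3 were listed at 0 in all libraries. GBP6 (gene 102174264) was at 7.74, 7.67 and 9.46 FPKM and an entry described as GBP1-like (gene 102170144) at 4.96, 5.93 and 3.02 FPKM. The deposited gene ontology terms, which 4 of the 8 members have, mention viruses for 0 of them, although 18 entries of the table carry the term for response to virus.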
